A study of Mus musculus with 9 samples.

Results

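Germ pluripotent stem (gPS) cells are pluripotent cells obtained from the germline stem cells of the adult mouse testis, which normally form only sperm. The 3 gPS lines of the study (gPS line 1, gPS line 2 and gPS line 3) were compared with one another here, gene by gene, and they are 3 of 9 arrays in all. Per the labels each gPS line is clonal, was sorted for a GFP reporter and was measured on 1 array. The promoter that drives the GFP, the strain and sex of the mice, and the GSC line each gPS line came from are not given in the labels. The other arrays are 4 lines of the germline stem cells (GSC) with 1 array each, and 2 arrays of mouse embryonic stem cells (ESC) labelled as a duplicate, for which separate cultures are not stated. The ESC arrays serve below as a reference level only. No treatment or time point is labelled for any group. Because each line has 1 array, no test between lines is possible, and every difference below is a description of 3 arrays. A difference between lines cannot be told apart from a difference between cultures, RNA preparations or arrays.

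Mouse pluripotent stem cells are held in self-renewal by a core of transcription factors around Pou5f1 (OCT4), Nanog and Sox2, by LIF signalling through STAT3, and by BMP ligands. They make their own FGF4, which through the ERK kinases moves them toward differentiation. Clonal pluripotent lines are known to differ in imprinted genes, in genes of early lineages and in chromosome content.

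A gene entered the comparison when its probe was detected, at a detection p under 0.01 against the negative controls of the array, on at least 1 of the 3 gPS arrays. This held for 11407 of 25697 probes, and the 10756 of them with a gene symbol gave 7885 genes, of which 6363 were detected on all 3 arrays and 1522 on 1 or 2. Values are normalized log2 intensities, so a difference of 1 is 2-fold. An undetected value was raised to the lowest detected value of its array (4.996 to 5.22 on the gPS arrays), and a range that rests on one is a lower bound. Detected probes numbered 9905 in gPS line 1, 9871 in gPS line 2 and 10650 in gPS line 3, and 9943 and 10193 on the ESC arrays. The part of the larger number in line 3 in the genes detected there alone was not tested.

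The 3 lines were alike in most genes, and a minority differed widely. The range, the highest minus the lowest of the 3 values, had a median of 0.48, and 971 genes (12.3%) had a range of at least 1. A range of at least 2, which is 4-fold, was found for 76 genes (0.964%). For scale, the ESC arrays differed from each other by a median of 0.16, and by at least 1 in 88 genes (1.12%). The range over 3 arrays is larger by construction than a difference of 2, so the pairs of lines are the closer comparison. Lines 1 and 2 differed by at least 1 in 465 genes (5.9%), with line 1 the higher in 220 (2.79%) and the lower in 245 (3.11%). Lines 1 and 3 differed in 587 genes (7.44%), with line 1 the higher in 323 (4.1%) and the lower in 264 (3.35%). Lines 2 and 3 differed in 347 genes (4.4%), with line 2 the higher in 209 (2.65%) and the lower in 138 (1.75%). The genes at the threshold were Tob1 (range 1.00072) and Sec61b (1.00056) just inside it, and Gpr83 (0.999947) and Cnot11 (0.999686) just outside.

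The correlation across the 6363 genes was 0.957 between lines 1 and 2, 0.951 between lines 1 and 3 and 0.965 between lines 2 and 3, against 0.985 between the ESC arrays. Genes are not independent replicates, and these values describe the arrays only. Line 3 lay nearest to the ESC mean by each of these measures. Its correlation with that mean was 0.968, against 0.954 for line 2 and 0.946 for line 1. It differed from the ESC mean by at least 1 in 296 genes (3.75%), against 484 (6.14%) for line 2 and 599 (7.6%) for line 1.

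A line was called apart in a gene when the range was at least 1 and the gap between that line and the middle line made up at least 0.75 of it. Line 1 stood apart in 223 genes (2.83%), higher in 122 (1.55%) and lower in 101 (1.28%). Line 2 stood apart in 103 genes (1.31%), 62 higher (0.786%) and 41 lower (0.52%). Line 3 stood apart in 137 genes (1.74%), 59 higher (0.748%) and 78 lower (0.989%). In the other 508 genes with a range of at least 1 the lines were spread without one apart.

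**Figure D1:**
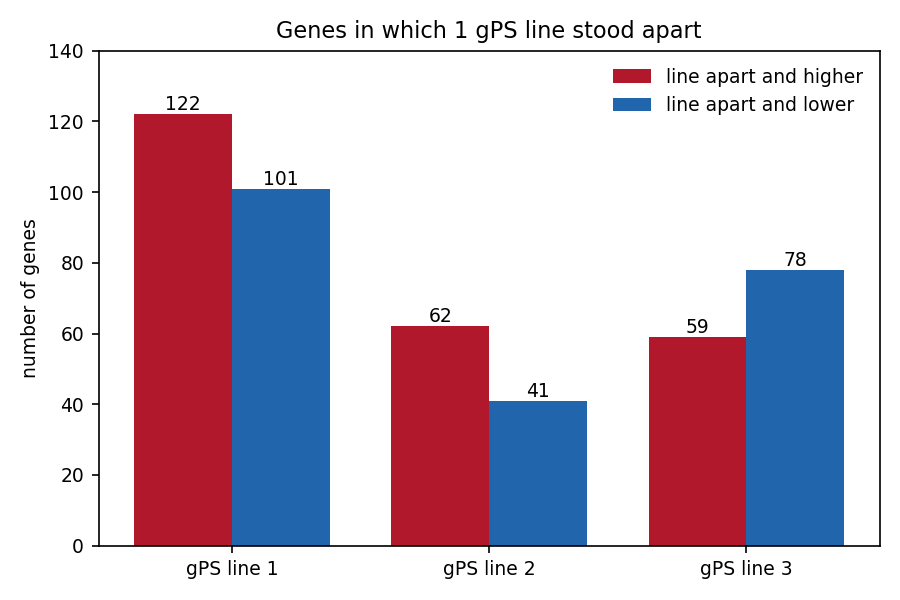
Number of genes (vertical axis) in which each gPS line stood apart from the other 2, higher (red) or lower (blue), of 7885 genes and with 1 array per line. Line 1 has the most genes in both directions, 122 and 101.

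The side on which the ESC arrays fell differed between the lines. Where line 1 stood apart and lower, the mean of lines 2 and 3 was nearer the ESC mean in 90 of 101 genes, and where it stood higher, in 86 of 122. The same held for line 2 in 49 of 62 genes with line 2 higher and in 31 of 41 with line 2 lower. Where line 3 stood apart and higher, it was itself nearer the ESC mean in 38 of 59 genes, and where it stood lower, in 40 of 78. Setting 1 outlying line against a mean of 2 can favour the mean, and these counts have no share over all genes beside them. Over all genes detected on all 3 arrays the nearest single line to the ESC mean was line 3 in 42%, line 2 in 30.4% and line 1 in 27.6%.

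Pou5f1 and Nanog varied little among the lines, while Sox2 and other pluripotency factors varied more. Pou5f1 was 12.36 in line 1, 12.70 in line 2 and 12.44 in line 3, and the ESC arrays read 12.31 and 12.18. Nanog, the homeodomain partner of OCT4, was 10.35, 10.37 and 10.48 in lines 1, 2 and 3, and 10.42 and 10.58 in ESC. Zfp42 (REX1), a marker of naive cells, ran from 8.58 to 8.78 in the 3 lines, and Esrrb, a nuclear receptor of the same network, from 11.29 to 11.93. Tbx3 ran from 7.96 to 8.56. The markers of pluripotent cells were thus detected in each of the 3 lines labelled as pluripotent. Of 24 pluripotency factors on the array 19 were measured, and 6 of the 19 (31.6%) had a range of at least 1, against 12.3% of all genes. Nr0b1, Prdm14, Mycn and Foxd3 were not detected in any line.

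Klf4 had the widest range of these 19 factors. Klf4, a zinc-finger factor that LIF induces and that is used in reprogramming, was 8.83 in line 1, 6.59 in line 2 and 9.91 in line 3, a range of 3.31 or 9.94-fold, beside 9.20 and 8.80 in ESC. Line 2 was the lowest with each of the 3 Klf4 probes. Its relative Klf5 ran the other way, at 12.61 in line 2 against 10.96 in line 1 and 11.40 in line 3. Tcf15, a factor of cells leaving the naive state, was 9.30 in line 1, 10.32 in line 2 and 11.23 in line 3, with all 3 lines above the ESC arrays at 8.69 and 8.76. Sox2 was 7.77, 8.81 and 9.27 in lines 1, 2 and 3 by the probe used, and a second, dimmer probe ran from 5.43 to 5.69 with line 1 the highest. The 2 Sox2 probes did not give the same order of the lines. Tcea3, an elongation factor gene, was lower in line 2 (8.14) than in lines 1 and 3 (9.63 and 9.40), and Gbx2, a LIF target, higher in line 3 (11.83) than in lines 1 and 2 (10.67 and 10.89). Dppa3 (STELLA), a germ cell and naive-state gene, was 10.59 in line 1, 10.10 in line 2 and 7.39 in line 3. Line 3 stood 9.18-fold below the highest line there, and also below the ESC arrays at 9.43 and 9.60.

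**Figure D2:**
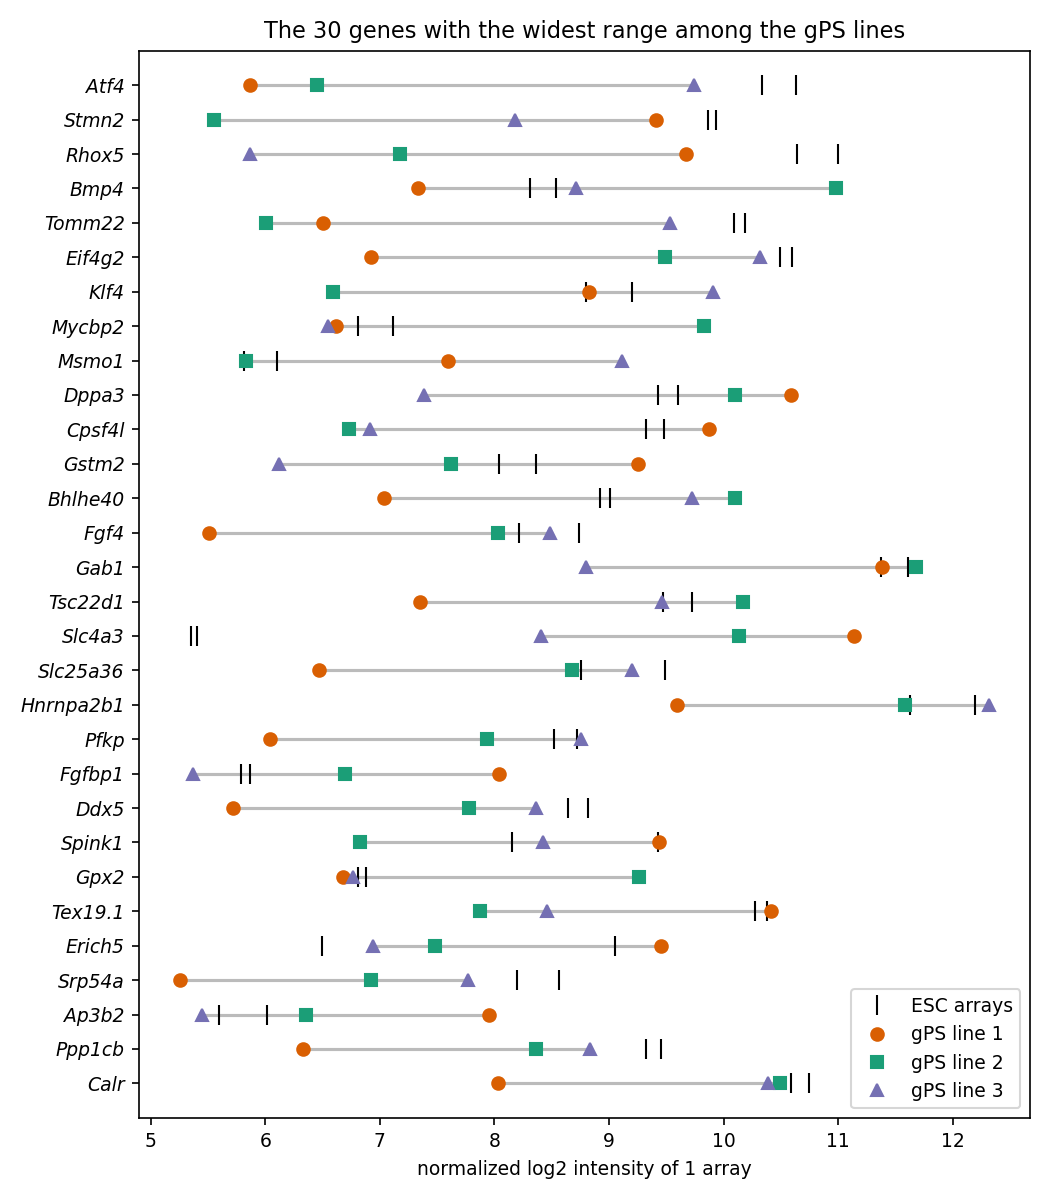
Normalized log2 intensity (horizontal axis) of the 30 genes with the widest range among genes detected on all 3 gPS arrays, 1 symbol per line and 1 array each, with the 2 ESC arrays as black ticks. The ranges run from 2.46 to 3.88, and the ESC mean lies inside the range of the 3 lines in 20 of the 30 genes.

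Among the 30 widest genes detected on all 3 arrays, line 1 was the lowest in 14, line 3 in 9 and line 2 in 7. Line 3 was the nearest of the 3 lines to the ESC mean in 17 of the 30, line 1 in 7 and line 2 in 6. Over all 6363 genes detected on all 3 arrays line 3 was nearest in 42%, so line 3 was the nearest line in the wide genes and in the rest alike.

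Ligands of the pathways that hold or end self-renewal were among the widest genes. Fgf4, the autocrine FGF of pluripotent cells, was 5.51 in line 1, 8.03 in line 2 and 8.48 in line 3, and 8.73 and 8.21 in ESC. Line 1 stood 7.82-fold below line 3, and lines 2 and 3 lay by the ESC arrays. Bmp4, the ligand that with LIF sustains mouse pluripotent cells, was 7.33 in line 1, 10.98 in line 2 and 8.71 in line 3, and 8.54 and 8.31 in ESC. Line 2 was the highest, 12.5-fold above line 1. Of 18 measured Nodal and BMP genes 8 (44.4%) had a range of at least 1, against 12.3% of all genes. Line 2 was the highest in 11 of the 16 detected on all 3 arrays, against 29.3% of all genes. Id1, a BMP target, was 7.82, 9.09 and 7.55 in lines 1, 2 and 3. Tdgf1, the Nodal co-receptor CRIPTO, was detected in line 3 at 6.83 and in neither of the other lines, while the ESC arrays read 6.56 and 6.50. A second, dimmer Tdgf1 probe was detected in no gPS line and only on the second ESC array, at 5.36. Nodal itself ran only from 8.87 to 8.90, and Lefty1, its inhibitor, from 11.30 to 11.78.

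The FGF and ERK genes were spread without a common order. Of 19 measured 10 (52.6%) had a range of at least 1, against 12.3% of all genes, with a median range of 1.11. Fgfbp1, an FGF-binding carrier protein, was 8.04 in line 1, 6.69 in line 2 and 5.37 in line 3. Spry4, a feedback inhibitor of the pathway, ran in the opposite order at 7.24, 8.11 and 9.01. Etv1, an ETS factor downstream of FGF, was not detected in line 1 and read 6.33 and 7.07 in lines 2 and 3, and its second probe gave the same order. The feedback phosphatase Dusp6 had a range of only 0.49.

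The immediate-early genes, which growth factors and stress switch on within minutes, were most often highest in line 2 and most often lowest in line 3. Of 14 measured 8 (57.1%) had a range of at least 1, against 12.3% of all genes. Of the 12 detected on all 3 arrays line 2 was the highest in 7, against 29.3% of all genes. Line 3 was the lowest in 8 of the 12, against 36.7%. Fos was 8.71 in line 1, 10.06 in line 2 and 7.96 in line 3, and 7.28 and 6.45 in ESC. Junb was 8.45, 9.24 and 7.78, and 7.63 and 7.19 in ESC. All 3 lines lay above both ESC arrays in Fos and Junb. Fosb was 6.70 and 6.67 in lines 1 and 2 and 5.18 in line 3. Egr1 was 11.14 and 10.98 in lines 1 and 2 and 9.83 in line 3. Dusp1 was highest in line 2 at 10.99, against 9.62 in line 1 and 10.52 in line 3. Atf3, Egr3, Ier2 and Nr4a1, further genes of the group, were not detected in any line.

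Line 1 was the lowest in most glycolysis and hypoxia genes. These genes carry glucose into the cell, break it down to lactate, or answer low oxygen through HIF factors. Of 28 measured 8 (28.6%) had a range of at least 1, against 12.3% of all genes. Line 1 was the lowest in 17 of the 21 detected on all 3 arrays, with a median of -0.68 against the mean of the other 2 lines. Over all genes line 1 was the lowest in 31%, and that median was 0.05. The mean over the 21 genes was 9.61, 10.30 and 10.29 in lines 1, 2 and 3, and 9.87 and 9.70 on the ESC arrays. Over the list both ESC arrays thus lay nearer line 1 than lines 2 and 3. The platelet phosphofructokinase Pfkp was 6.04 in line 1, 7.93 in line 2 and 8.75 in line 3, and 8.72 and 8.52 in ESC. The oxygen-sensing prolyl hydroxylase Egln3 was 7.30 in line 1, 9.45 in line 2 and 8.96 in line 3, and 7.76 and 7.38 in ESC. In Pfkp line 3 lay by ESC, and in Egln3 it was line 1 that lay by ESC. Ndrg1, a hypoxia-induced gene, was 6.08, 7.23 and 8.03 in lines 1, 2 and 3, and its second probe ran the same way. The glucose transporter Slc2a1 was 11.27, 12.02 and 12.58. Gapdh, Pkm and Aldoa, among the most abundant members, had ranges of 0.16, 0.18 and 0.37. Bnip3, Car9 and P4ha1, known HIF targets, were not detected in any line.

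The promoters of Egln3, the member with line 1 apart and the widest range, and of the glucose transporter gene Slc2a1 are shown as examples with 1 match each to ACGTG, the short core that HIF is known to bind. The windows hold the 250 bases before the RefSeq gene start on build GRCm38.p6, written 5′ to 3′ on the strand of the gene, with each match to ACGTG, or to CACGT for the other strand, in capitals.
Egln3, chr12:54203875-54204124, minus strand: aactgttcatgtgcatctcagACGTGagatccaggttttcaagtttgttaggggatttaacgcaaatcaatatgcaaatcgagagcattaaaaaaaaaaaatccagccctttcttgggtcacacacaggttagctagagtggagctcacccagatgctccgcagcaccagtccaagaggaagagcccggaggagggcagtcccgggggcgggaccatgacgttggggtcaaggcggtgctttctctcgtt
Slc2a1, chr4:119108495-119108744, plus strand: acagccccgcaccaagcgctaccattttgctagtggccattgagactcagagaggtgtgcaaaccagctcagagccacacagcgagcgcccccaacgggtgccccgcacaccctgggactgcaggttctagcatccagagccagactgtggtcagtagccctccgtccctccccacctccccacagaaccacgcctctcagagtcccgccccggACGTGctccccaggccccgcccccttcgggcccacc
Such a match was found in 15 of the 25 measured glycolysis and hypoxia genes with a window (60%), against 26% of the 6455 measured genes with one and 16.6% of all windows. The list includes genes chosen because they answer HIF, so a higher share can follow from that choice. A match is a description of the letters only, and CACGTG, the E-box of other factors, holds the same letters. The part of these matches in the difference of line 1 was not tested. In all 7 motifs were searched on both strands after the expression values were seen, and ACGTG was singled out after the 7 counts were seen. The GC box GGGCGG was found in 19 of the 25 windows (76%), in 66.7% of measured genes with a window and in 32.7% of all windows. The cyclic AMP response element TGACGTCA (3.07% of measured genes and 1.55% of all windows) and the AP-1 site TGANTCA (5.39% and 6.75%) were found in 1 of the 25 each. The ATF4 element TGACGCAA (1.08% and 0.438%), the serum response element (0.0155% and 0.0609%) and the TATA box TATAAA (7.84% and 12.4%) were found in none of the 25.

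Line 3 was the lowest in most cytoskeletal genes. Of 25 measured genes of the contractile and keratin cytoskeleton 12 (48%) had a range of at least 1, against 12.3% of all genes. Line 3 was the lowest in 18 of the 21 detected on all 3 arrays, with a median of -0.82 against the mean of the other 2. Over all genes line 3 was the lowest in 36.7%, with a median of -0.03. Cnn2 (calponin 2), an actin-binding protein, was 7.53, 6.23 and 5.42 in lines 1, 2 and 3. S100a11, a calcium-binding protein, was 11.71, 11.97 and 10.06, and Tpm1 (tropomyosin) 10.73, 9.75 and 9.08. Myl6, a myosin light chain outside the list, was 11.66, 11.59 and 9.87. The ESC arrays read 9.50 and 10.26 for S100a11 and 10.24 and 10.92 for Myl6, so lines 1 and 2 were above ESC in both genes. In Cnn2 the ESC arrays, at 6.99 and 6.67, lay above lines 2 and 3 and below line 1. Over the 21 genes the mean was 8.66, 8.40 and 7.74 in lines 1, 2 and 3, and 8.03 and 8.01 in ESC. The partner keratins Krt8 and Krt18 of simple epithelia followed line 1 instead. Krt8 was 9.33 in line 1 and 7.53 and 7.30 in lines 2 and 3, beside 7.39 and 7.31 in ESC. Krt18 was 7.57 in line 1 and 5.46 and 5.61 in lines 2 and 3, beside 5.54 and 5.48 in ESC. In both keratins lines 2 and 3 lay close to the ESC arrays and line 1 above them.

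Markers of other cell types were examined beside these groups, and in cultures measured in bulk more cells of a type and more RNA per cell cannot be told apart. Of 32 fibroblast markers on the array 22 were measured, and line 1 was the highest in 11 and line 3 the lowest in 13 of the 20 detected on all 3 arrays, against 39.2% and 36.7% of all genes. The log2 of their summed level was 12.93 in line 1, 12.72 in line 2 and 12.52 in line 3, and 12.57 and 12.54 in ESC. Col1a2, Col3a1, Postn, Lum, Pdgfra and Pdgfrb, which define fibroblasts, were not detected in any line. Col1a1 was 7.39 in line 1 and 6.22 and 6.001 in lines 2 and 3, and Mgp 9.01, 8.16 and 6.97. Their part in the cytoskeletal differences was not tested.

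Of 26 primitive endoderm markers 13 were measured, and line 3 was the lowest in 7 of the 9 detected on all 3 arrays, against 36.7% of all genes. Gata4, Sox17, Foxa2, Pdgfra, Ttr and Afp were not detected in any line. Lama1, a laminin of the basement membrane, was 7.003, 8.61 and 7.50 in lines 1, 2 and 3, and Col4a2 7.39, 6.86 and 5.67. The summed level was 11.84, 11.89 and 11.50 in lines 1, 2 and 3, and 11.84 and 11.81 in ESC. Of 17 trophoblast markers 10 were measured, of which 6 (60%) had a range of at least 1, against 12.3% of all genes. Krt8, Krt18 and Bmp4 were the widest. Elf5, Gata3, Tpbpa and Ascl2 were not detected in any line. Otx2, a factor of the primed epiblast, was 7.34, 6.99 and 5.84 in lines 1, 2 and 3 and was not detected on either ESC array. Pou3f1, of the same stage, was 8.41, 6.48 and 7.66, and 6.15 and 5.70 in ESC.

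Genes of the germ line and of imprinting gave no single order of the lines. Ddx4, a germ cell helicase, was detected in line 3 (5.73) and in neither of the other lines, and Dazl in no line. The range of Ddx4 was at least 0.52, and its 2 further probes were detected on no gPS or ESC array. Nanos3, an RNA-binding protein of germ cells, was 6.96, 7.17 and 5.09 in lines 1, 2 and 3. Of 11 measured genes expressed from the paternal allele line 3 was the highest in 8, against 31.5% of all genes. A range of at least 1 was found in 2 of the 11 (18.2%), against 12.3% of all genes. Snrpn ran from 11.75 to 12.08, Peg3 from 6.37 to 6.99, and Dlk1 from 6.19 to 7.15 with line 3 the highest. Nnat was 6.56, 8.09 and 7.65, and Inpp5f 6.38, 6.34 and 7.46. Of 12 measured genes expressed from the maternal allele 3 (25%) had a range of at least 1, against 12.3% of all genes. Cdkn1c, a cell cycle inhibitor, was 7.51 in line 1, 9.83 in line 2 and 8.53 in line 3, beside 9.98 and 9.92 in ESC. Phlda2, its neighbour in the same imprinted domain, was 7.72, 7.84 and 9.50, beside 10.22 and 10.48 in ESC. Line 2 was the nearest to ESC in Cdkn1c, and line 3 in Phlda2.

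The X-linked homeobox genes of the Rhox cluster were highest in line 1 and lowest in line 3 in each of the 3 members with a range of at least 1. Rhox5 was 9.67 in line 1, 7.18 in line 2 and 5.87 in line 3, beside 10.64 and 10.997 in ESC, a range of 3.81 or 14-fold. Rhox9 was 8.34 and 7.02 in lines 1 and 2 and was not detected in line 3, beside 6.29 and 7.38 in ESC. Rhox6 was 6.33 and 5.35 and likewise was not detected in line 3. Xist, the RNA of the inactive X chromosome, was not detected in any gPS line. Of the Y-linked genes Eif2s3y was detected in line 1 at 5.32 and in neither of the other lines, against 7.20 and 6.87 on the ESC arrays. The value in line 1 lay near the lowest detected value of that array (5.21), and the range was at least 0.33. Uty was detected in line 3 only, at 5.22, near the limit of detection, and Kdm5d in no line.

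Some genes were within 1 of the ESC mean in line 3 on the log2 scale and far lower or undetected in lines 1 and 2. Olig1, a helix-loop-helix factor of the oligodendrocyte lineage, was 9.71 in line 3 and not detected in lines 1 and 2, at least 22.7-fold above line 1, and the ESC arrays read 8.88 and 8.80. Cops8, a subunit of the COP9 signalosome, was 9.09 in line 3, 5.83 in line 1 and not detected in line 2, beside 9.90 and 9.74 in ESC. Thumpd1, a cofactor of tRNA acetylation, was 8.80 in line 3 and not detected in lines 1 and 2. Wdr46, a nucleolar protein, was 8.67 in line 3, 5.58 in line 1 and not detected in line 2, and its second probe was detected in line 3 alone, at 8.05. Tomm22, an import receptor of the outer mitochondrial membrane, was 6.50, 6.01 and 9.53 in lines 1, 2 and 3.

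Atf4, the transcription factor of the integrated stress response, had the widest range of the genes detected on all 3 arrays. It was 5.87 in line 1, 6.45 in line 2 and 9.74 in line 3, a range of 3.88 or 14.7-fold, and 10.63 and 10.33 in ESC. A single probe measured it. Of 24 measured genes of the amino acid and ATF4 response, Atf4 included, 4 (16.7%) had a range of at least 1, against 12.3% of all genes. Asns, a known ATF4 target, was 11.13, 10.69 and 11.13 in lines 1, 2 and 3, and Trib3 5.71, 5.90 and 6.90. In neither target was the range as wide as that of the Atf4 probe.

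The genes in which line 1 stood apart and lower included several in which line 1 was also below both ESC arrays. Calr (calreticulin), a chaperone of the endoplasmic reticulum, was 8.03 in line 1, 10.49 in line 2 and 10.39 in line 3, and 10.75 and 10.59 in ESC. Eif4g2, a translation initiation factor, was 6.92, 9.49 and 10.32 in lines 1, 2 and 3, beside 10.60 and 10.49 in ESC. A dim second Eif4g2 probe was detected in line 3 alone, at 5.42, and did not set line 1 apart. The RNA helicase Ddx5 was 5.72, 7.78 and 8.37, beside 8.81 and 8.64 in ESC. Ppp1cb, a phosphatase subunit, was 6.33, 8.37 and 8.83, and its second detected probe gave 6.04, 7.65 and 8.33. Glud1 (glutamate dehydrogenase) was 7.92, 10.12 and 10.37, and on its second probe line 1 was not detected while lines 2 and 3 read 8.05 and 8.24. Other genes lowest in line 1 had probes that differed. Hnrnpa2b1, an RNA-binding protein spread over the 3 lines, was 9.59, 11.58 and 12.32 by the probe used. A dimmer second probe gave 5.96, 5.40 and 5.97, without line 1 the lowest. The probes also diverged in Rps3, a ribosomal protein, where the probe used gave 11.07, 12.50 and 13.01 and the other 12.28, 12.18 and 11.59. Rps3 was the 1 gene of 25 measured ribosomal protein genes (4%) with a range of at least 1, against 12.3% of all genes.

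Across all genes with a line apart, 180 further detected probes of 136 genes were available, and in 150 of them the line apart deviated in the same direction. The deviations were smaller there. For line 1 lower, for example, the median was -1.22 with the probe used and -0.65 with the further probes.

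Line 1 stood apart and higher in Cpsf4l, Tex19.1, Plac8, Txnip and Cdkn2a besides the keratins. Tex19.1, a gene of germ cells, placenta and pluripotent cells, was 10.41 in line 1 and 7.87 and 8.46 in lines 2 and 3, beside 10.38 and 10.27 in ESC. Its neighbour and close paralog Tex19.2 stood apart in the same way with a range of 1.66, and whether their probes share signal was not tested. Cdkn2a, the locus of the p16 and ARF tumour suppressors, was 7.34 in line 1 and 5.50 and 5.53 in lines 2 and 3, and a second probe gave 6.94, 5.61 and 5.23. Txnip, an inhibitor of thioredoxin and glucose uptake, was 8.20 in line 1 and 6.20 and 6.16 in lines 2 and 3, with ESC at 5.56 and 5.70. In Tex19.1 line 1 was the line at the ESC level, and in Cdkn2a and Txnip it was the line above it. Gstm2, a glutathione transferase, was 9.25, 7.62 and 6.12 in lines 1, 2 and 3, and its 2 further probes gave the same order.

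Line 2 stood apart and lower in genes of smaller range, which ran up to 1.92 at Hspb8, a small heat shock protein. Bcat1, a transaminase of branched-chain amino acids, was 9.74 in line 2 and 11.27 and 11.34 in lines 1 and 3, and the centromere protein Cenpm was 7.39 against 8.77 and 8.99. In both genes 2 further probes also had line 2 the lowest, undetected in 1 of those of Bcat1. Line 3 stood apart and lower in Gab1, an adaptor of receptor tyrosine kinases, at 8.80 against 11.38 and 11.67 in lines 1 and 2 and 11.61 and 11.38 in ESC. It also stood lower in the folate receptor Folr1, at 7.43 against 9.47 and 8.96, as it did with a second probe, and in the iron exporter Slc40a1, at 6.37 against 8.58 and 8.28. Msmo1, an enzyme of sterol synthesis, was 7.60, 5.83 and 9.11 in lines 1, 2 and 3 and near line 2 in ESC, at 6.10 and 5.81. Slc4a3, an anion exchanger, was 11.14, 10.13 and 8.40 in lines 1, 2 and 3 and only 5.40 and 5.36 in ESC. All 3 lines were above ESC in Slc4a3 with each of its 3 probes that detected it in all 3 lines.

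**Figure D3:**
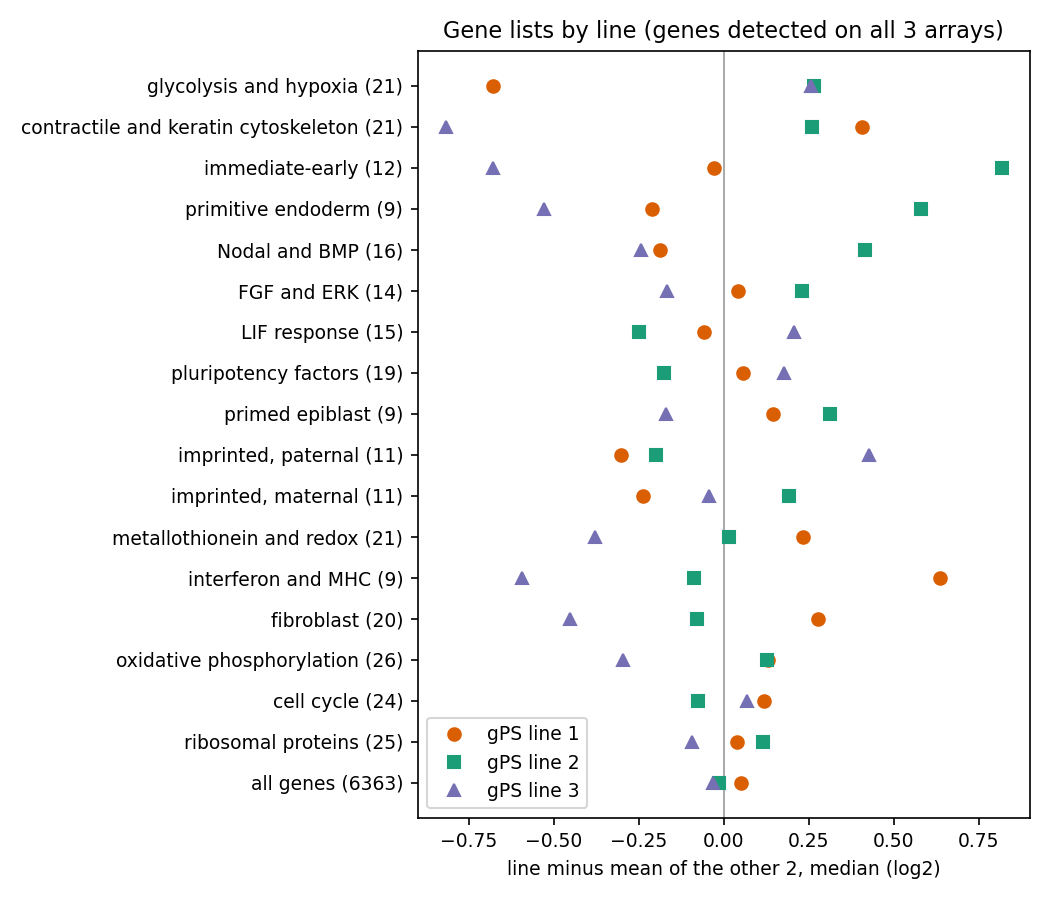
Median over the genes of each list (vertical axis, number of genes detected on all 3 arrays in brackets) of the value of a line minus the mean of the other 2 (horizontal axis, log2), 1 array per line. Line 1 is displaced to -0.68 in glycolysis and hypoxia genes and line 3 to -0.82 in cytoskeletal genes, while over all genes the 3 lines lie between -0.03 and 0.05. The ESC arrays do not enter these values.

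Of 38 gene lists 13 had a median range at least 1.5 times that of all genes. Ribosomal protein genes were among the steadiest, with a median range of 0.39, and oxidative phosphorylation genes had 0.47, the value of all genes being 0.48. In oxidative phosphorylation line 3 was the lowest in 18 of 26 genes, against 36.7% of all genes, with a median of -0.30. Over these 26 genes the mean was 10.43, 10.43 and 10.16 in lines 1, 2 and 3. The ESC arrays read 9.83 and 10.29, further from each other than line 3 was from the other lines. Against 12.3% of all genes, 5 of 24 cell cycle genes (20.8%) had a range of at least 1. Of these Cdkn1c is described above, and Mcm7, a subunit of the replicative helicase, was 6.95, 8.89 and 9.11 in lines 1, 2 and 3. Line 1 was the highest in 11 and line 3 the lowest in 12 of 21 metallothionein and redox genes, against 39.2% and 36.7% of all genes. Gpx2, a glutathione peroxidase, was 9.26 in line 2 and 6.68 and 6.76 in lines 1 and 3, beside 6.88 and 6.81 in ESC.

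The differences were not spread evenly over the chromosomes. For each line the value minus the mean of the other 2 was taken over genes detected on all 3 arrays, and its median per chromosome ran from -0.12 to 0.30 in line 1, from -0.20 to 0.29 in line 2 and from -0.29 to 0.15 in line 3. The ESC arrays differed from each other by chromosome medians of -0.04 to 0.08. Line 1 was displaced upward on chromosome 1 (0.30), chromosome 17 (0.24) and chromosome 10 (0.20), and line 3 downward on chromosome 17 (-0.29), chromosome 10 (-0.28) and chromosome 3 (-0.22). Line 2 was displaced upward on chromosome 14 (0.29), chromosome 6 (0.26) and chromosome 8 (0.21). The 3 differences of a gene are tied to one another by construction. Line 1 up and line 3 down on chromosomes 10 and 17 are thus in part 1 contrast. Against the ESC mean, line 1 stood at 0.099 and 0.19 on chromosomes 10 and 17, beside 0.07 over all genes. Line 3 stood there at -0.26 and -0.15, beside 0.01 over all genes. On chromosome 1 line 1 was the highest line in 183 of 302 genes, or 60.6%, against 39.2% of all genes. On chromosome 8 the displacement of line 2 lay in the later of 2 equal parts of the genes in chromosome order (0.33) and was -0.01 in the earlier part. The gene order is that of the GRCm38.p6 annotation.

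**Figure D4:**
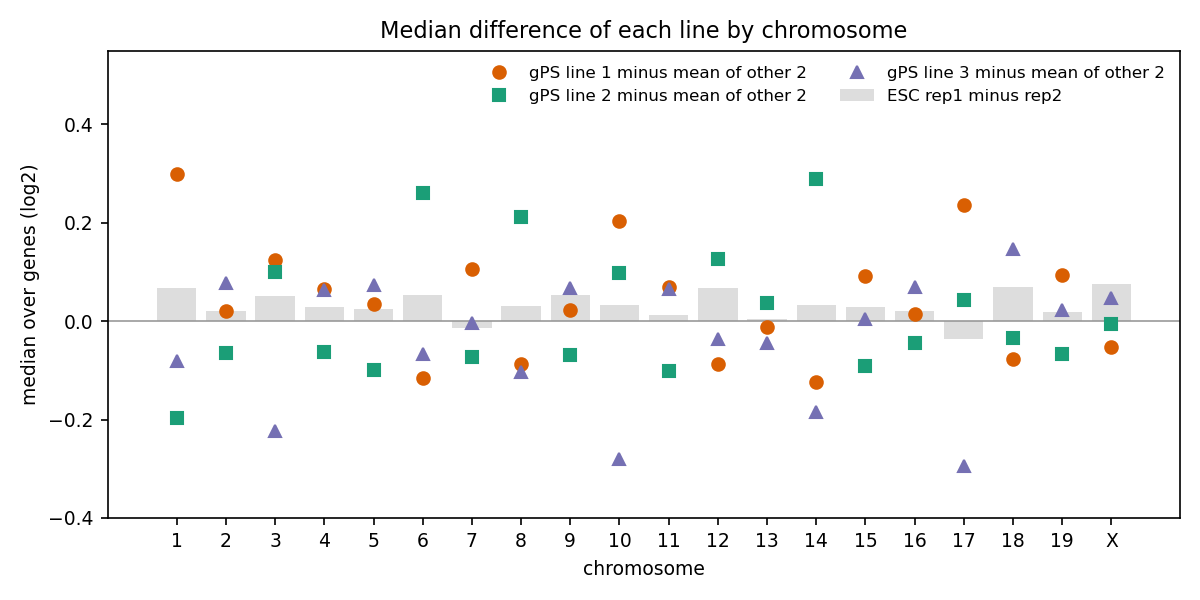
Median over genes detected on all 3 arrays of each gPS line minus the mean of the other 2 (symbols, log2) for chromosomes 1 to 19 and X, with the difference between the ESC arrays as grey bars. Line 2 stands highest on chromosomes 6, 8 and 14, and line 3 lowest on chromosomes 3, 10 and 17.

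The longest run of displaced medians of neighbouring genes was on chromosome 14 in line 2. After the chromosome medians were seen, a running median over 15 genes was taken along each chromosome, and runs of at least 6 genes beyond 0.4 were listed, which gave 11 runs for line 1, 10 for line 2 and 13 for line 3. The run on chromosome 14 held 47 genes from Bnip3l to Obi1, and the running median reached 1.13. Line 2 was the highest in 41 of them, beside 29.3% of all genes. The run was picked by the same values of line 2, so this count adds no support. Runs in which line 1 or line 3 was lower lay within this run and restate in part the same difference. The numbers of runs per line are thus not independent of one another. A gene in a run is the centre of a window of 15 genes and need not be displaced itself. In Obi1 line 2 was the lowest, at 6.46 against 6.53 and 7.02 in lines 1 and 3. The next longest, on chromosome 6 in line 2, held 34 genes from Zfp637 to Tpi1 and reached 0.55. Without chromosome 14, line 2 stood apart and higher in 43 of 7614 genes (0.565%), in place of 62 of 7885 (0.786%).

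**Figure D5:**
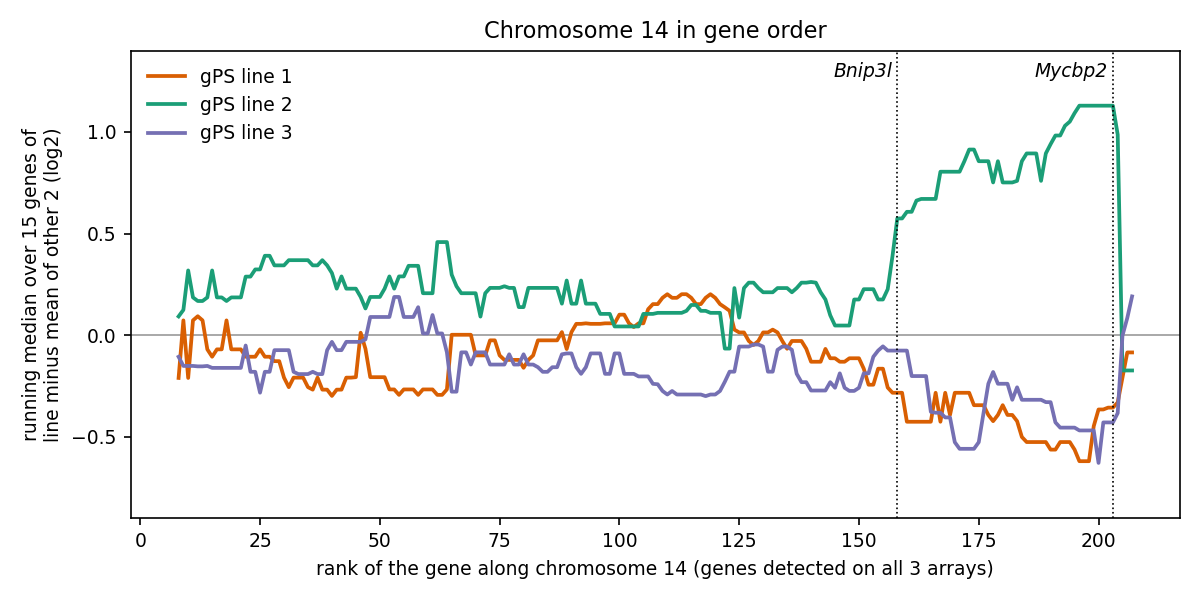
Running median over 15 genes of each gPS line minus the mean of the other 2 (vertical axis, log2) against the rank of the gene along chromosome 14 (horizontal axis, genes detected on all 3 arrays), with Bnip3l and Mycbp2 marked. Line 2 reaches 1.13 before Mycbp2 and lies lower after it.

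The height of line 2 changed within the run. From Mzt1 to Mycbp2, a stretch chosen by eye from these values, line 2 was the highest in 8 of the 8 genes detected on all 3 arrays. Its median there was 1.59 above the other 2 lines and 1.63 above the ESC mean, while the medians of lines 1 and 3 against ESC were 0.08 and 0.05. Mzt1, a spindle organizing protein, was 7.87 in line 1, 10.21 in line 2 and 8.22 in line 3. Bora, an activator of Aurora A kinase, was 8.11, 10.003 and 8.16, and Dis3, the nuclease of the RNA exosome, 5.86, 6.85 and 5.59. Klf5, Commd6, Uchl3 and Pibf1 were likewise highest in line 2, at 12.61, 10.21, 10.995 and 7.37. Mycbp2, a ubiquitin ligase, was 6.62, 9.83 and 6.55, and its second probe was detected in line 2 alone, at 5.95. Klf12 was detected in line 2 at 6.15, in line 3 at 5.0004 and not in line 1, and Kctd12 in line 2 alone, at 6.08. Klf5 belongs to this stretch, and its height in line 2 stands beside that of its neighbours. After Mycbp2 line 2 was mostly the lowest, and the limit at Mycbp2 was set from these same values, so the count adds no support. It was the lowest in 9 of the 11 further genes detected on all 3 arrays, beside 32.3% of all genes, with a median of -0.31. Examples are Rbm26 (8.72, 7.59 and 9.06 in lines 1, 2 and 3) and Ipo5 (10.24, 9.25 and 10.38). Before Mzt1 line 2 was the highest in 115 of 195 genes, beside 29.3% of all genes, with a median of 0.29. DNA copy number was not measured on these arrays, and its part in these runs was not tested.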

How the data were processed

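RNA of 4 GSC, 3 gPS and 2 ESC samples was measured on Illumina mouse bead arrays with 25697 probes. The deposited intensity values are summarised probe signals without normalization, each with a detection p-value that the authors' scanner software gave, per the file headers. BeadStudio 3.2, lumi and RMA are the tools given, per the submitters' processing notes. A table of processed values was also deposited by the authors, on a log2 scale with a median of 2.993 over its values. In each array it ranks the probes as the intensities do, and its centring is not given in the sources used here.

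Here the intensities were background-corrected and quantile-normalized over the 9 arrays with neqc of limma 3.58.1 (R 4.3.3, offset 16), with negative controls inferred from the detection p. Symbols came from the platform annotation: 23978 probes had 1 symbol and 1719 none. A gene was represented by the detected probe with the highest mean on the gPS arrays. No test was made, and array number and signal over background limit the precision. Scripts were tested on simulated data.

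Genes were named by rule: the 30 widest ranges detected on all 3 gPS arrays, the 20 widest of the others, the 3 widest of each list, the 10 widest per line and direction, and fixed markers. Members of the chromosome 14 run, genes at the threshold, Slc2a1 and some list members with narrower ranges (Egr1, Dusp1, Tpm1, Trib3 and others) were named after their values were seen. The members and all 38 lists were chosen with earlier results of these data known. The running medians, the limits on chromosome 14, the promoters, the motifs and the restriction of list orders to genes detected on all 3 arrays were also chosen after seeing the data.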

Additional observations from a re-analysis of the deposited data

How the results depend on the processing

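No paired analysis was possible because no test between the lines was made. Counts moved with the treatment of dim signals and with the thresholds. Without background correction 335 genes had a range of at least 1, the median range was 0.3185, the pairs 1 and 2, 1 and 3, and 2 and 3 differed in 145, 200 and 115 genes, and the counts of genes with a line apart (higher and lower for lines 1, 2 and 3 in turn) were 28, 35, 26, 12, 24 and 23. In the same order normexp with an offset of 50 gave 428 genes, 0.3524, 192, 256 and 146, and 41, 49, 30, 17, 29 and 29. An offset of 50 in neqc gave 508 genes, 233, 300 and 173, and 53, 53, 36, 19, 37 and 33. With the authors' processed values the numbers were 1624 genes and 796, 1005 and 654, and 156, 74 and 149 genes had line 1, 2 and 3 apart and lower. A range of 2 left 76 genes, 31, 53 and 21, and 8, 15, 3, 0, 9 and 5. A gap of 0.9 gave 36, 34, 19, 7, 20 and 26, and a gap of 0.6 gave 184, 174, 106, 72 and, for line 3 lower, 137. With all probes kept 717 and 925 probes differed between lines 1 and 2 and lines 1 and 3, 213 had line 1 apart and lower, and the correlation of line 1 with ESC was 0.9375, against 0.9541 without background correction. With no detection filter the median range was 0.2255 and 22 lists had a wide median. Leaving out each line in turn gave 348 to 584 genes with a difference of at least 1 and medians of 0.2741 to 0.3177, and 16 to 22 wide lists, with 22 without line 1.

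Of the medians by chromosome only the 9 that follow were recomputed, and none of the 9 changed sign under the alternatives run. They use genes detected on all 3 arrays, so settings that changed only the detection filter or the undetected values could hardly move them. For line 1 on chromosomes 1, 17 and 10, line 2 on 14, 6 and 8, and line 3 on 17, 10 and 3, no background correction gave 0.2117, 0.1731, 0.1333, 0.1911, 0.1834, 0.1598, -0.1944, -0.2048 and -0.16. Normexp gave 0.2384, 0.1903, 0.1547, 0.2227, 0.2068, 0.1689, -0.2179, -0.2297 and -0.1779, and the offset of 50 in neqc 0.2461, 0.1969, 0.1697, 0.2408, 0.2172, 0.1713, -0.2321, -0.2463 and -0.1806. Median scaling gave 0.483, 0.4168, 0.3608, 0.2061, 0.174, 0.1264, -0.3519, -0.3564 and -0.3116, and moved the medians of all genes to 0.214, -0.0994 and -0.108 in lines 1, 2 and 3. Relative to those, chromosome 1 in line 1 stood at 0.269 (0.246 with quantile normalization) and chromosome 14 in line 2 at 0.305 (0.302). Under it 201 genes had line 1 and 40 had line 2 apart and higher. The authors' values gave 0.245 for line 2 on chromosome 8 and -0.3261 for line 3 on chromosome 17. For line 1 on chromosome 1, all probes gave 0.2655 and the mean of the probes 0.2258. Of 1969 alternative values for 143 named genes, 1374 moved by less than the spread of the ESC pair, 594 moved by more and 1 changed sign: the difference of Rps3 was 0.1043 without line 3. Without line 3 the other Rps3 probe, at 12.28 in line 1 and 12.18 in line 2, had the highest mean and represented the gene. The cause of the other changes was not tested. With all probes kept and with no detection filter each named gene kept the same probe. The 143 values of each of these settings were thus bound to stay, and they are among the 1374. Dim probes limit the ranges of undetected genes to lower bounds.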

Other observations

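The GSC arrays were read beside the genes in which a gPS line stood apart with a range of at least 2, a choice made after seeing the data. Of the 9 such genes with gPS line 3 higher, 6 were also higher in GSC line 4 than in each of the other 3 GSC lines by at least 1. This held for 68 of all 7885 genes (0.862%). GSC lines 1 and 3 stood apart and higher in this way in 0 genes and GSC line 2 in 11 (0.14%). GSC line 4 was thus nearly the only GSC line that could match. The 6 genes were Atf4, Cops8, Thumpd1, Tomm22, Ttc27 and Wdr46. Cops8 was 6.05, 5.92 and 6.04 in GSC lines 1, 2 and 3 and 9.23 in GSC line 4, beside 9.09 in gPS line 3. Tomm22 was 6.80, 6.68 and 6.91 in GSC lines 1, 2 and 3 and 9.51 in GSC line 4, beside 9.53 in gPS line 3. Atf4 was 5.77, 5.08 and 5.85 in GSC lines 1, 2 and 3 and 7.03 in GSC line 4, below the 9.74 of gPS line 3. Of the 8 genes with gPS line 1 higher 1 had GSC line 4 apart in this way, which was Tex19.1, and of the 3 with gPS line 2 higher none had. In the lower direction GSC line 4 stood apart in 89 of all genes (1.13%). It did so in 0 of the 5 genes with gPS line 3 lower and in 0 of the 15 with gPS line 1 lower. The labels do not say from which GSC line a gPS line came.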
